A study of Mus musculus with 6 samples.

Results

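The antrum, the distal part of the stomach, was compared between Beige mice and C57/BL6 mice (BL6 below), the strains titled as controls in a study of gastric cell lineages and Foxq1. The members are the 4 arrays whose titles name these strains, 2 for BL6 and 2 for Beige, out of 6 arrays in the series. The other 2 arrays hold antral RNA of Satin mice, which carry a mutation in Foxq1, and entered the fit only to help estimate the spread between arrays. Beige mice carry a mutation in Lyst and are used here as a coat colour control, and BL6 mice are the common inbred laboratory strain. Treatment, age, sex, allele name and genetic background are not given for any group in the sources used here. A strain difference can therefore not be told apart from the Lyst mutation, and neither can be told apart from differences in background, sex or age. Per the design text 2 mice of a strain were used, but no label ties an array to 1 animal, so p-values measure the spread between arrays, which may be partly technical.

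Lyst encodes a very large BEACH domain protein that controls the size and traffic of lysosomes and of lysosome-related organelles such as melanosomes and the granules of leukocytes. Its loss gives giant granules, a pale coat and weakened killer and neutrophil functions in the mouse, and Chediak-Higashi syndrome in humans. The antral epithelium is made mainly of surface mucous cells, deeper gland mucous cells and hormone cells, among them the G cells that make gastrin, and it lies on a thick muscle wall.

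The question put to the data was how far the control strains differ from each other. No transcript passed the test: with limma 0 of 22626 probe sets (0%) were called at an adjusted p under 0.05, and the smallest adjusted p was 0.885. At an unadjusted p under 0.05 there were 1149 probe sets (5.08%), of which 652 were higher and 497 lower in Beige, where 5% is the share that such a threshold gives without any difference. With each gene represented by its brightest probe set, 342 of 12393 genes (2.76%) had an unadjusted p under 0.05 and were higher in Beige, and 281 (2.27%) were lower. Both Beige arrays lay above both BL6 arrays for 1945 genes (15.7%) and below them for 1976 genes (15.9%). All values below are log2(signal + 32) after quantile normalization, a scale on which 1 unit is a 2-fold change and the change of dim genes is understated. On it the median difference over all genes was -0.01, and the 5th and 95th percentiles were -0.55 and 0.56. Because no gene passed the test, each difference below is a measured value and not a call.

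Some arrays of unlike strain were more alike than arrays of the same strain. BL6 replicate 1 had a Gapdh signal at the 5' end of only 0.526 times that at the 3' end, a sign of shortened RNA or cDNA, while on BL6 replicate 2 and the Beige arrays the ratio was 0.988, 1.02 and 0.990. BL6 replicate 2 carried transcripts of exocrine pancreas, an organ that lies against the antrum: the mean over 25 such genes was 12.06 there, 7.11 in BL6 replicate 1, and 7.37 and 9.11 in the Beige arrays. BL6 replicate 1 was low in transcripts of fat cells, with a mean over 12 genes of 6.74 against 8.07 in BL6 replicate 2 and 8.09 and 7.97 in Beige. Over all probe sets the BL6 arrays correlated at 0.920 and the Beige arrays at 0.944, while BL6 replicate 2 and Beige replicate 2 correlated at 0.962. Between the BL6 arrays 747 genes differed by over 2-fold, between the Beige arrays 627. The median signals of the deposited columns were 47.6 and 38.2 for BL6 and 49.5 and 49.0 for Beige. In whole tissue, fewer cells of a type and less RNA per cell cannot be told apart.

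**Figure D1:**
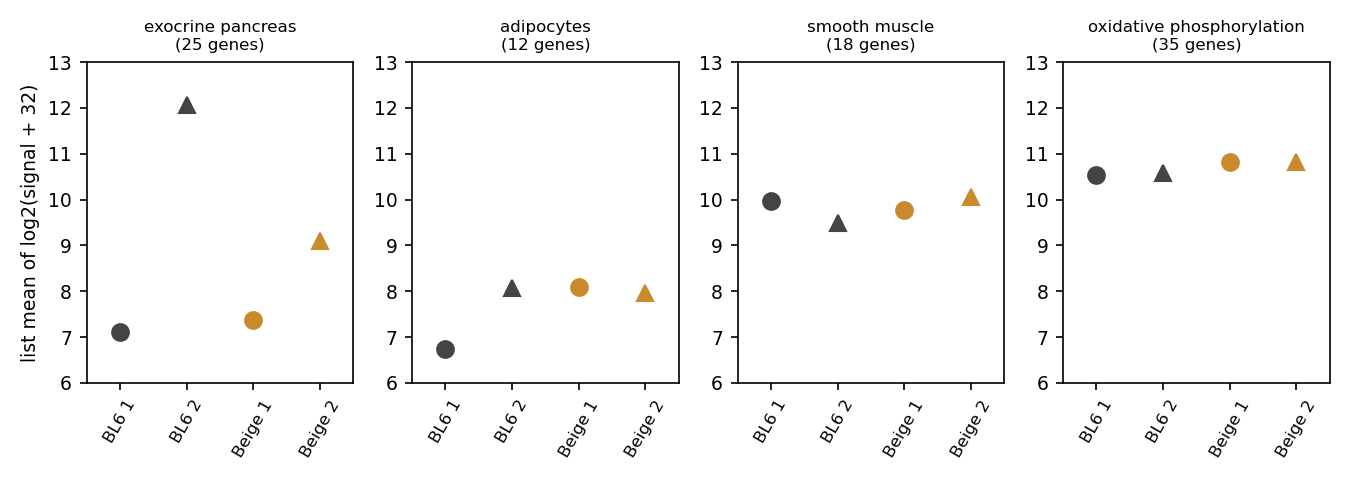
Mean of log2(signal + 32) over the genes of 4 lists (vertical axis) on each of the 4 arrays (horizontal axis), BL6 in black and Beige in orange, circles for replicate 1 and triangles for replicate 2. The exocrine pancreas mean spans 7.11 to 12.06 within BL6 and the fat cell mean 6.74 to 8.07, while the oxidative phosphorylation mean lies at 10.54 and 10.58 in BL6 and at 10.81 and 10.82 in Beige.

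The tissue carried the markers of the antrum in both strains. Gast, the gastrin gene, measured 12.05 and 11.82 on the BL6 arrays and 12.06 and 12.21 on the Beige arrays, a difference of 0.20 (SE 0.28). The difference was smaller than its error. The surface mucous genes Muc5ac, Gkn1, Gkn2 and Tff1 differed by 0.06 (SE 0.19), 0.05 (SE 0.22), 0.05 (SE 0.22) and 0.22 (SE 0.22), and the gland mucous gene Tff2 by 0.19 (SE 0.22). These transcripts lay close to the highest value on the normalized scale, 13.29, so that a higher level could hardly have shown. Another Gkn1 probe set differed by -0.15. Without normalization between arrays or with centring on the median, Muc5ac, Gkn1, Gkn2 and Tff2 were below 0 relative to all genes. The muscle wall genes Des, desmin, and Actg2, enteric smooth muscle actin, differed by 0.44 (SE 0.23) and 0.08 (SE 0.22), though a dimmer Des probe set differed by -0.26.

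The genes mutated in the coat colour strains were both measured. Lyst read 6.64 and 6.62 in BL6 and 6.92 and 6.06 in Beige, a difference of -0.14 (SE 0.38, unadjusted p 0.726). The Beige values lay on either side of the BL6 values, and without Beige replicate 2 the difference was 0.29. Another Lyst probe set read 5.25 and 6.15 in BL6 and 6.25 and 5.77 in Beige, a difference of 0.31. These dim probe sets do not say whether the Lyst transcript is intact, since where the mutation lies relative to the probes was not analysed. Foxq1, a forkhead transcription factor of surface mucous cells, read 10.13 and 10.17 in BL6 and 9.88 and 9.38 in Beige, a difference of -0.52 (SE 0.18, unadjusted p 0.0207, limma adjusted p 0.885). Both Beige arrays lay below both BL6 arrays, and the Beige arrays differed from each other about as much as the strains did. On the Satin arrays Foxq1 read 10.46 and 10.41.

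In the BEACH domain family, Lyst included, 6 of 7 genes on the array had a difference below 0 and the median was -0.20, against -0.01 for all genes. None had an unadjusted p under 0.05. Lrba, a regulator of CTLA4 traffic, read 8.61 and 8.29 in BL6 and 8.25 and 8.15 in Beige, a difference of -0.25 (SE 0.18). Wdr81, which acts in endosome maturation, read 7.22 and 7.50 in BL6 and 6.55 and 7.44 in Beige, so that its groups overlapped. The list kept a median below 0 in all 20 alternative settings of the processing, from -0.28 to -0.07.

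The lysosome itself showed little. Of 36 lysosomal hydrolase genes 18 had a difference above 0 and 18 below it, and the median was -0.02. In both Beige arrays 3 lay higher (8.33%, against 15.7% of all genes) and 5 lower (13.9%, against 15.9%). Gaa, acid alpha-glucosidase, read 7.81 and 7.70 in BL6 and 6.67 and 7.35 in Beige. Ctsc, cathepsin C, which activates the serine proteases of leukocyte granules, read 9.42 and 9.47 in BL6 and 9.20 and 9.12 in Beige. On these probe sets the groups did not overlap, with differences of -0.74 (SE 0.34) and -0.28 (SE 0.14). The dimmer Gaa probe set ran the other way, at 6.44 and 7.44 in BL6 and 7.57 and 7.23 in Beige, a difference of 0.46. Among 26 genes of the lysosome membrane and of lysosome biogenesis the median was -0.08. In both Beige arrays 9 lay lower (34.6%, against 15.9% of all genes) and 4 higher (15.4%, against 15.7%). Sort1, sortilin, a sorting receptor on the way to the lysosome, read 8.82 and 9.10 in BL6 and 8.55 and 8.53 in Beige, a difference of -0.42 (SE 0.15). Scarb2, the lysosome membrane protein that carries glucocerebrosidase, read 9.72 and 9.30 in BL6 and 9.05 and 9.19 in Beige, a difference of -0.39 (SE 0.17), but its dimmer probe set differed by 0.12.

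Genes for the traffic of lysosome-related organelles, such as the Rab27 and HPS genes, had a median of 0.03 over 34 genes. In both Beige arrays 5 lay higher (14.7%, against 15.7% of all genes) and 2 lower (5.88%, against 15.9%). None had an unadjusted p under 0.05. The 2 with the smallest p belong to the Rab27 route. Mlph, melanophilin, the link between Rab27a and myosin Va on melanosomes, read 10.06 and 10.12 in BL6 and 10.45 and 10.42 in Beige, a difference of 0.35 (SE 0.16). Sytl1, a synaptotagmin-like Rab27 effector in secretion, read 7.45 and 7.69 in BL6 and 8.05 and 7.91 in Beige, a difference of 0.41 (SE 0.19). Pigment cell genes were dim, with means over 8 genes of 6.17 and 6.04 in BL6 and 5.81 and 5.90 in Beige.

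Of the 10 genes with the smallest p among those higher in Beige, 5 encode mitochondrial proteins and are given here; the share of such genes over the whole array was not counted. Ndufa6, a subunit of respiratory complex I, read 9.99 and 9.97 in BL6 and 10.70 and 10.60 in Beige, a difference of 0.67 (SE 0.14). Timm8b, a chaperone of the intermembrane space, read 8.06 and 8.29 in BL6 and 9.09 and 8.94 in Beige, a difference of 0.84 (SE 0.18). For both the gap between strains exceeded the gap within each strain, which the choice of genes by smallest p favours. Mrps22, of the small mitochondrial ribosomal subunit, read 7.48 on both BL6 arrays and 8.22 and 8.29 in Beige, a difference of 0.78 (SE 0.17). Ndufs4, another complex I subunit, read 8.75 and 9.02 in BL6 and 9.61 and 9.62 in Beige, but a dimmer Ndufs4 probe set differed by -0.21. Immt, mitofilin, which shapes the cristae of the inner membrane, read 8.57 and 8.43 in BL6 and 9.26 and 9.18 in Beige, and its other probe sets differed by 0.49 and 0.54 in the same direction.

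The other genes of that group serve several functions. Rps19, of the small cytosolic ribosomal subunit, had the smallest p among them: it read 10.38 and 10.16 in BL6 and 11.15 and 11.09 in Beige, a difference of 0.85 (SE 0.15), or 1.80-fold. Sf3b5, a splicing factor subunit, read 5.58 and 6.38 in BL6 and 7.60 and 7.47 in Beige, a difference of 1.56 (SE 0.31), or 2.94-fold, though a dimmer probe set of it differed by -0.17. The Satin arrays read 7.57 and 7.46 for Sf3b5, close to Beige. Ssu72, a phosphatase of RNA polymerase II, differed by 0.69, Golph3l, of the Golgi, by 0.94, and Rerg, a small GTPase that was dim in BL6, by 0.93. All of these had a limma adjusted p of 0.885.

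**Figure D2:**
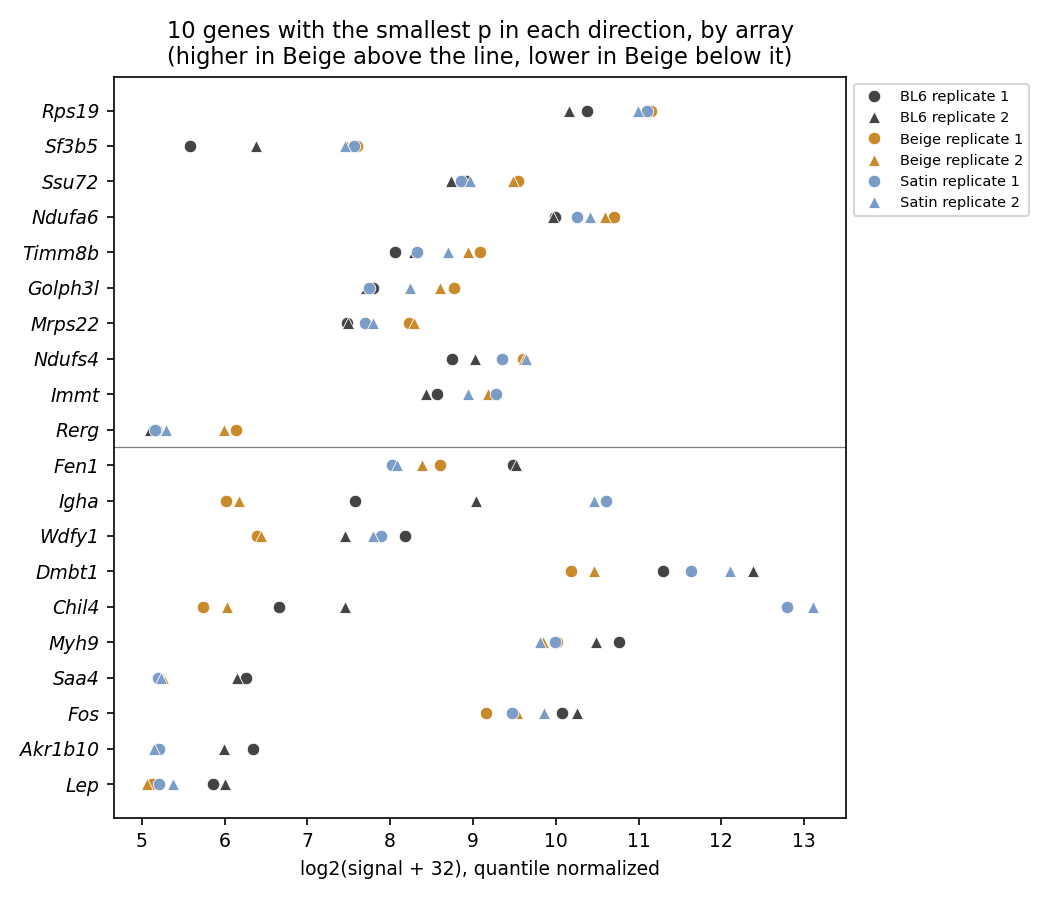
Values of the 10 genes with the smallest p in each direction (rows) as log2(signal + 32) (horizontal axis), with 1 point per array: BL6 in black, Beige in orange and Satin in blue, circles for replicate 1 and triangles for replicate 2. The Beige pairs lie close together, which the choice by smallest p favours. Igha spans 7.57 to 9.03 within BL6 and lies at 10.61 and 10.46 in Satin.

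Oxidative phosphorylation is the set of inner membrane complexes that pass electrons to oxygen and drive ATP synthesis, and of the 40 gene lists it had the largest share of genes that lay higher in both Beige arrays. Of 35 genes 32 had a difference above 0. In both Beige arrays 21 lay higher (60%, against 15.7% of all genes) and 0 lower (against 15.9%). At an unadjusted p under 0.05 there were 9, all higher in Beige, while 2.76% of all genes were at that p and higher. The median difference was 0.28, or 0.25 to 0.33 in each single pairing of a Beige with a BL6 array. No member passed the test over all probe sets. The list mean on the Satin arrays was 10.79 or above.

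By complex, all 13 Nduf genes of the list had a difference above 0, with a median of 0.29, and 9 of them lay higher in both Beige arrays. Ndufa4, named for complex I and since placed with complex IV, read 10.21 and 10.65 in BL6 and 11.16 and 11.01 in Beige, a difference of 0.66 (SE 0.19). Ndufv2, the 24 kDa complex I subunit that carries an iron-sulfur cluster, read 10.60 and 10.34 in BL6 and 10.96 and 10.95 in Beige, a difference of 0.48 (SE 0.15), but a dimmer probe set differed by -0.06. In both genes the groups did not overlap. Of the 3 complex II genes 2 lay higher in both Beige arrays, among them Sdhd, its membrane anchor, at 10.41 and 10.25 in BL6 and 10.60 and 10.91 in Beige, a difference of 0.43 (SE 0.16). Complex III with cytochrome c had 2 such genes of 5, complex IV 3 of 7 and ATP synthase 5 of 7, with medians of 0.23, 0.20 and 0.32. The 3 genes with a difference below 0 were Cycs (-0.05), Cox5a (-0.14) and Atp5d (-0.18). Their dimmer probe sets had the other sign, at 0.52 and 0.15 for Cycs, 0.19 and 0.12 for Cox5a and 0.33 for Atp5d.

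The values that bear on RNA integrity and on other tissue are as follows. With the Gapdh ratio of each array as a covariate the oxidative phosphorylation median was 0.26, without BL6 replicate 1 it was 0.26, and without BL6 replicate 2, the array rich in pancreatic transcripts, it was 0.34. Over all 20 alternative settings it ran from 0.26 to 0.48. Whether the cell types of the samples differed in mitochondria was not tested; the parietal cell list, of cells rich in mitochondria, had means of 8.40 and 8.79 in BL6 and 8.80 and 8.69 in Beige, with a median difference of 0.14 over 14 genes. Smooth muscle had means over 18 genes of 9.97 and 9.49 in BL6 and 9.78 and 10.06 in Beige.

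**Figure D3:**
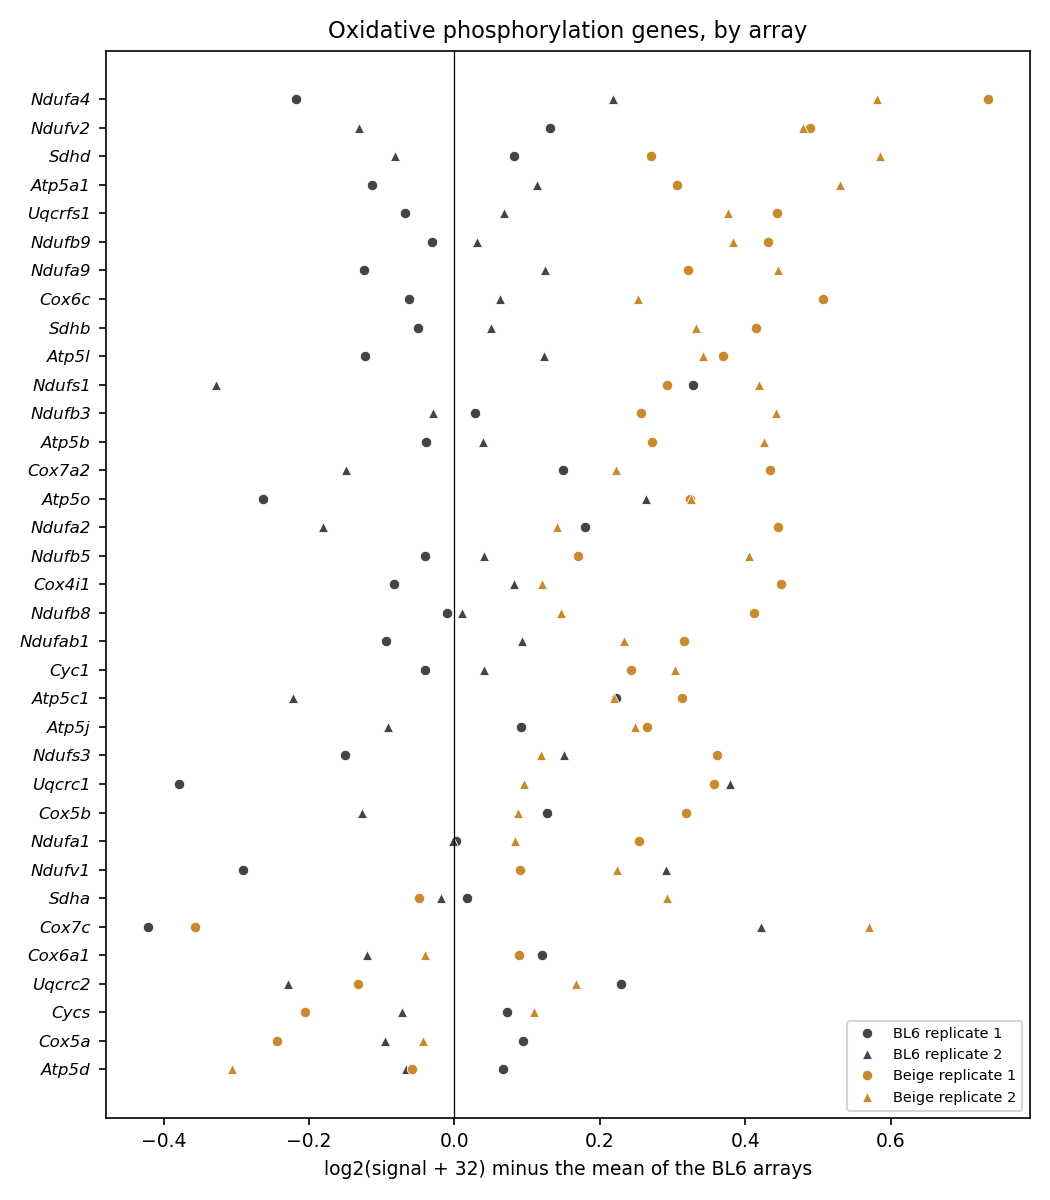
Each of the 35 oxidative phosphorylation genes (rows, ordered by their difference) as log2(signal + 32) minus the mean of the BL6 arrays (horizontal axis), with 1 point per array, BL6 in black and Beige in orange, circles for replicate 1 and triangles for replicate 2. Both Beige points lie to the right of both BL6 points in 21 rows and to the left of them in 0.

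Related families, chosen after their values were seen, are given as values only, beside 15.7% of all genes higher and 15.9% lower in both Beige arrays. Of 74 mitochondrial ribosomal protein genes 31 lay higher (41.9%) and 6 lower, with a median of 0.19. Mrpl35 read 8.69 and 8.17 in BL6 and 9.12 and 9.17 in Beige. All 34 Nduf genes on the array had a median of 0.29, with 22 higher (64.7%) and 1 lower. For 39 proteasome subunits the counts were 13 (33.3%) and 1 with a median of 0.13, and for 46 cytosolic ribosomal proteins 11 (23.9%) and 1 with a median of 0.10. Of 18 splicing genes for Sm and U snRNP proteins 5 lay higher (27.8%) and 2 lower, with a median of 0.12. Psmb7, a catalytic proteasome subunit, read 10.34 and 10.46 in BL6 and 10.87 and 11.02 in Beige. Rps9 read 9.83 and 10.27 in BL6 and 10.65 and 10.80 in Beige, while Rpl27a ran the other way, from 8.68 and 7.93 to 7.63 and 7.40, with 0.13 on a probe set near the floor of the scale.

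These genes leaned together, and their promoters were read in RefSeq's table for GRCm38.p6, which held 30 promoters of 27 of the 35 genes, each from 250 bases before to 50 after a start. The half-site TGCGCA of nuclear respiratory factor 1, the same on both strands, stood in 8 of the 30 (26.7%) and in 2549 of 32851 promoters in all (7.76%). The ETS motif CCGGAAG, searched on both strands stood in 6 of 30 (20%) and in 2910 of all (8.86%). Sdhd, Atp5l and Cox6a1 had both, with differences of 0.43, 0.36 and 0.02. Whether motifs and differences go together was not tested. The Sdhd promoter is shared: Timm8b, with a difference of 0.84, starts 51 bases away on the other strand. The stretch below runs up to the Sdhd start at chr9:50603850-50603930, minus strand, with the half-site (positions -80 to -75 from the start) and the ETS motif (-46 to -40, in reverse complement) in capitals; its 5' end holds 30 bases of Timm8b. The promoters of Ndufa4 (chr6:11907451-11907570, minus strand) and Ndufv2 (chr17:66101560-66101679, minus strand), the list members with the smallest p, hold neither motif in the 120 bases shown. A motif match describes the letters only and is not a measured binding site.
Sdhd: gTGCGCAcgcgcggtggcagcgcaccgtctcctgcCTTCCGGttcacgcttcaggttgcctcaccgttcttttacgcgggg
Ndufa4: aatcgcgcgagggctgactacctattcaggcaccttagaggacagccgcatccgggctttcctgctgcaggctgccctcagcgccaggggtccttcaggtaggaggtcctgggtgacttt
Ndufv2: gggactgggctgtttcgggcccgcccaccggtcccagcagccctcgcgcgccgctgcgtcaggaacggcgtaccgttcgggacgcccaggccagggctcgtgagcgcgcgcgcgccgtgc

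Gastric transcription factor genes leaned the other way. Of 28 such genes 21 had a difference below 0. In both Beige arrays 12 lay lower (42.9%, against 15.9% of all genes) and 1 higher (3.57%, against 15.7%). At an unadjusted p under 0.05 there were 4, all lower in Beige, while 2.27% of all genes were at that p and lower. The median was -0.15, or -0.24 to -0.11 by single pairs of arrays. It stayed below 0 in all 20 alternative settings, from -0.21 to -0.04. The value of -0.04 came with the mean of the probe sets of each gene in place of the brightest, so the size of the lean depends on that choice.

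Besides Foxq1, the genes at that p were Nr5a2, Gata6 and Sox9. Nr5a2, a nuclear receptor of gut and pancreas, read 6.21 and 6.68 in BL6 and 5.42 and 5.56 in Beige, a difference of -0.96 (SE 0.29), with 5.19 and 5.22 in Satin. Gata6, a zinc finger factor of endodermal epithelium, read 9.13 and 9.24 in BL6 and 8.76 and 8.46 in Beige, a difference of -0.57 (SE 0.18). In both genes every Beige array lay below every BL6 array on these probe sets. The other Gata6 probe set differed by 0.10, and the other Nr5a2 probe sets differed by -0.23, -0.21 and 0.09. Sox9, a factor of epithelial progenitors, read 7.33 and 7.16 in BL6 and 6.57 and 6.34 in Beige, a difference of -0.79 (SE 0.25), but a dimmer probe set differed by 0.32. Nr5a2 is also active in pancreatic acinar cells, and its probe set lay below the filter on low values. The pancreas means were 7.11 and 12.06 in BL6 and 7.37 and 9.11 in Beige. Whether pancreatic tissue bears on the Nr5a2 difference was not tested. Sox2 and Pdx1, factors of stomach and antral identity, did not lean this way, with differences of 0.10 (SE 0.28) and 0.21 (SE 0.27).

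**Figure D4:**
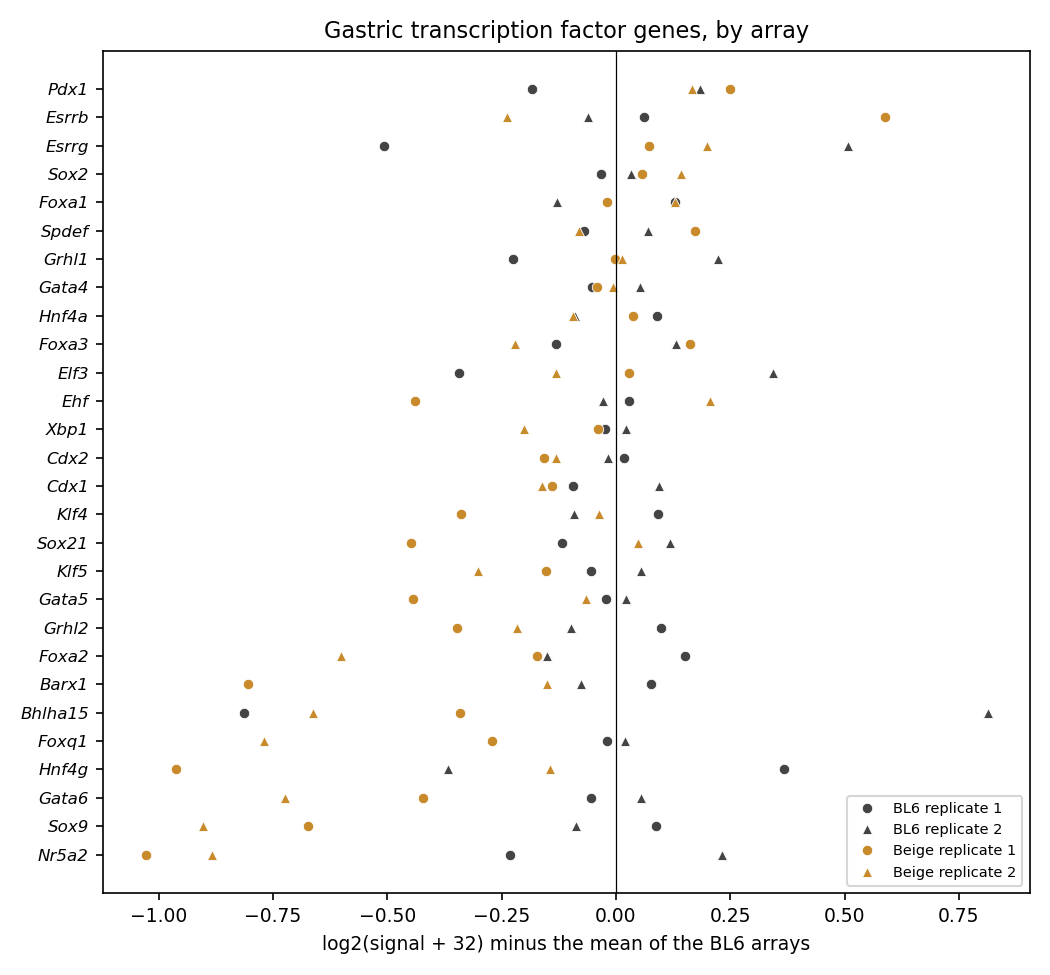
Each of the 28 gastric transcription factor genes (rows, ordered by their difference) as log2(signal + 32) minus the mean of the BL6 arrays (horizontal axis), with 1 point per array, BL6 in black and Beige in orange, circles for replicate 1 and triangles for replicate 2. Both Beige points lie to the left of both BL6 points in 12 rows, with Nr5a2, Sox9 and Gata6 among the lowest.

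The digestive cell genes of the panel had differences above 0, but the chief cell list as a whole had members on both sides. Of its 9 genes 5 had a difference above 0 and 4 below it, down to -1.96, and the median was 0.01. In both Beige arrays 2 of the 9 lay higher (22.2%, against 15.7% of all genes) and 0 lower (against 15.9%). Hormone cell genes showed no common direction. Pgc, pepsinogen C, differed by 0.21 (SE 0.21), Pga5, pepsinogen A, by 0.35 (SE 0.26), Cblif, gastric intrinsic factor, by 0.04 (SE 0.37), and the acid pump subunits Atp4a and Atp4b by 0.30 (SE 0.37) and 0.28 (SE 0.27). Each of these differences was less than 1.5 times its error. Ghrl, the ghrelin gene, read 10.70 and 11.41 in BL6 and 11.89 and 11.41 in Beige, so that the groups overlapped slightly, with a difference of 0.59 (SE 0.28). Sst, somatostatin, differed by 0.49 (SE 0.42), Chga and Chgb, granule proteins of hormone cells, by -0.32 (SE 0.22) and -0.62 (SE 0.40). Over 24 enteroendocrine genes the median was -0.04. The median over 15 surface mucous genes was 0.09. In both Beige arrays 3 of them lay higher (20%, against 15.7% of all genes) and 1 lower (6.67%, against 15.9%). Capn8, a calpain of these cells, had the smallest p: it read 8.52 on both BL6 arrays and 8.28 and 8.01 in Beige. Of 10 deep gland mucous genes 8 had a difference above 0 and 2 below it, and the median was 0.19. In both Beige arrays 5 of the 10 lay higher (50%, against 15.7% of all genes) and 1 lower (10%, against 15.9%). The median of this list was above 0 in all 20 alternative settings, from 0.12 to 0.28.

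Macrophage and dendritic cell genes had a higher median in Beige, but with members on both sides. Of 19 genes 11 had a difference above 0 and 8 below it, and the median was 0.33. In both Beige arrays 9 lay higher (47.4%, against 15.7% of all genes) and 1 lower (5.26%, against 15.9%). At an unadjusted p under 0.05 there were 5, all higher in Beige, while 2.76% of all genes were at that p and higher. The 5 were C1qb and C1qc of the complement trigger C1q, Lyz2, lysozyme, and Fcer1g and Tyrobp, adaptors of activating immune receptors. C1qc read 7.22 and 7.45 in BL6 and 7.89 and 7.99 in Beige, a difference of 0.61 (SE 0.21). Fcer1g read 5.47 and 6.11 in BL6 and 7.09 and 6.60 in Beige, a difference of 1.06 (SE 0.36). In both the groups did not overlap. Lyz2, which gland mucous cells share, read 9.34 and 8.96 in BL6 and 9.89 and 9.84 in Beige. The lineage markers Csf1r, Cd68 and Mrc1 did not lean this way: their differences were -0.17 (SE 0.18), -0.20 (SE 0.30) and -0.03 (SE 0.22), though dimmer Csf1r probe sets differed by 0.42 and 0.36. The median of the list was above 0 in all 20 alternative settings, from 0.24 to 0.69.

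Immunoglobulin A heavy chain, Igha, was the 1 gene that lay lower in both Beige arrays and differed by over 4-fold. Gp2, a pancreatic gene, differed by -2.75 with groups that overlapped. Igha read 7.57 and 9.03 in BL6 and 6.02 and 6.17 in Beige, a difference of -2.21 (SE 0.40, limma adjusted p 0.885), or 4.62-fold. On the Satin arrays it read 10.61 and 10.46. The Beige arrays lay together and below both BL6 arrays, which differed from each other by more than 2-fold. Both other Igha probe sets agreed in sign, with differences of -2.23 and -1.62, though probe sets of this family can take up transcripts of related chains. Without BL6 replicate 1 the difference was -3.0 with a limma adjusted p of 0.0285, the 1 call in any setting. That fit leaves a single BL6 array, which is assumed to vary like the Beige and Satin arrays, so the p carries no BL6 replication. Without BL6 replicate 2 the difference was -1.49. Jchain, the joining chain of secreted IgA and IgM, read 7.85 and 9.31 in BL6 and 8.09 and 7.49 in Beige, so that its groups overlapped. The heavy chain of IgM, Ighm, read 7.0 and 9.81 in BL6 and 10.15 and 9.41 in Beige. Its dimmer probe sets differed in either direction, from -0.73 to 0.70. The list of 13 B and plasma cell genes as a whole had a median of -0.05.

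The other genes with the smallest p among those lower in Beige belonged to no single list. Fen1, the flap endonuclease of DNA replication, had the smallest p of any named gene: it read 9.48 and 9.52 in BL6 and 8.60 and 8.39 in Beige, a difference of -1.01 (SE 0.15), or 2.01-fold, but its other probe set differed by 0.01. On the Satin arrays it read 8.02 and 8.09, below BL6 as well. Wdfy1, an endosomal adaptor that was listed as variable between mouse strains, read 8.18 and 7.46 in BL6 and 6.39 and 6.44 in Beige, a difference of -1.40 (SE 0.27), with 7.88 and 7.80 in Satin. Its dimmer probe sets differed by -0.43 and 0.08. Dmbt1, a secreted scavenger receptor of mucosal surfaces, read 11.30 and 12.38 in BL6 and 10.18 and 10.47 in Beige, a difference of -1.52 (SE 0.34), or 2.87-fold. The higher BL6 value came from the array with pancreatic transcripts; without that array the difference was -0.96.

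Chil4, a chitinase-like lectin, read 6.66 and 7.45 in BL6 and 5.73 and 6.03 in Beige, a difference of -1.18 (SE 0.27), while it read 12.79 and 13.11 in Satin. The distance between the controls was thus small beside that of Satin from either. Fos, the immediate early transcription factor, read 10.08 and 10.26 in BL6 and 9.16 and 9.53 in Beige, a difference of -0.82 (SE 0.19), and Dusp1, a phosphatase induced along with it, read 7.60 and 7.95 in BL6 and 7.24 and 7.31 in Beige. Over 26 immediate early genes 20 had a difference below 0, against 6359 of all 12393 genes, and the median was -0.12. In both Beige arrays only 3 of them lay lower (11.5%, against 15.9% of all genes) and 1 higher (3.85%, against 15.7%). Myh9, non-muscle myosin heavy chain, differed by -0.70 (SE 0.16) on its brightest probe set, and by -0.26, -0.05 and 0.13 on the others. Saa4 (with 0.13 on another probe set), Akr1b10 and Lep completed the group, with values in Beige between 5.07 and 5.25, near the floor of the scale.

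Among stress genes, 1 array carried much of the difference. Hspa1b, inducible Hsp70, read 10.02 and 8.56 in BL6 and 7.69 and 8.01 in Beige, a difference of -1.44 (SE 0.41), against 10.85 and 10.41 on the Satin arrays. The BL6 arrays differed from each other by as much as the strains did, and without BL6 replicate 1 the difference was -0.72. Hspa1a, its near-identical neighbour, with which it can share signal, differed by -1.09 (SE 0.38). Over 18 heat shock genes the median was -0.04. Among 24 genes of folding in the endoplasmic reticulum 6 lay lower in both Beige arrays (25%, against 15.9% of all genes). Higher in both were 2 (8.33%, against 15.7%). The smallest p values were those of Hyou1, a chaperone, and Sel1l, of the degradation complex. Hyou1 read 9.61 and 9.90 in BL6 and 9.26 and 9.24 in Beige, and Sel1l 8.33 and 9.07 in BL6 and 8.17 and 8.02 in Beige. For both the higher BL6 value was on the array with pancreatic transcripts, and without it the differences were -0.36 and -0.23. Dimmer Hyou1 probe sets ran the other way, with differences of 0.03 and 0.33. The dimmest Sel1l probe set also did, with 0.48, while its other probe sets agreed in sign with the brightest, at -0.57 and -0.55.

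Of 45 genes of xenobiotic metabolism 33 had a difference above 0, 12 lay higher in both Beige arrays (26.7%, against 15.7% of all genes) and 2 lower (4.44%, against 15.9%), and the median was 0.09. Akr1c12, an aldo-keto reductase, read 8.65 and 9.22 in BL6 and 9.31 and 9.76 in Beige, a difference of 0.60 (SE 0.22). Cyp1b1, a cytochrome P450, read 6.36 and 6.53 in BL6 and 7.23 and 7.43 in Beige, a difference of 0.88 (SE 0.35), though dimmer probe sets differed by -0.09 and -0.51. B2m, the light chain of MHC class I, read 9.57 and 9.76 in BL6 and 10.26 and 10.09 in Beige, a difference of 0.51 (SE 0.14), with 0.27 on its other probe set. The groups did not overlap. Over the 19 genes of antigen presentation the median was 0.02. Oas2, an interferon-induced antiviral enzyme, read 5.13 and 5.62 in BL6 and 6.36 and 6.30 in Beige, and 33 interferon response genes had a median of 0.09. Scd1, stearoyl-CoA desaturase, read 7.51 and 8.79 in BL6 and 9.82 and 9.09 in Beige. Adipoq, adiponectin of fat cells, read 5.05 and 8.48 in BL6 and 8.69 and 8.70 in Beige, so that its difference lay almost wholly in BL6 replicate 1.

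**Figure D5:**
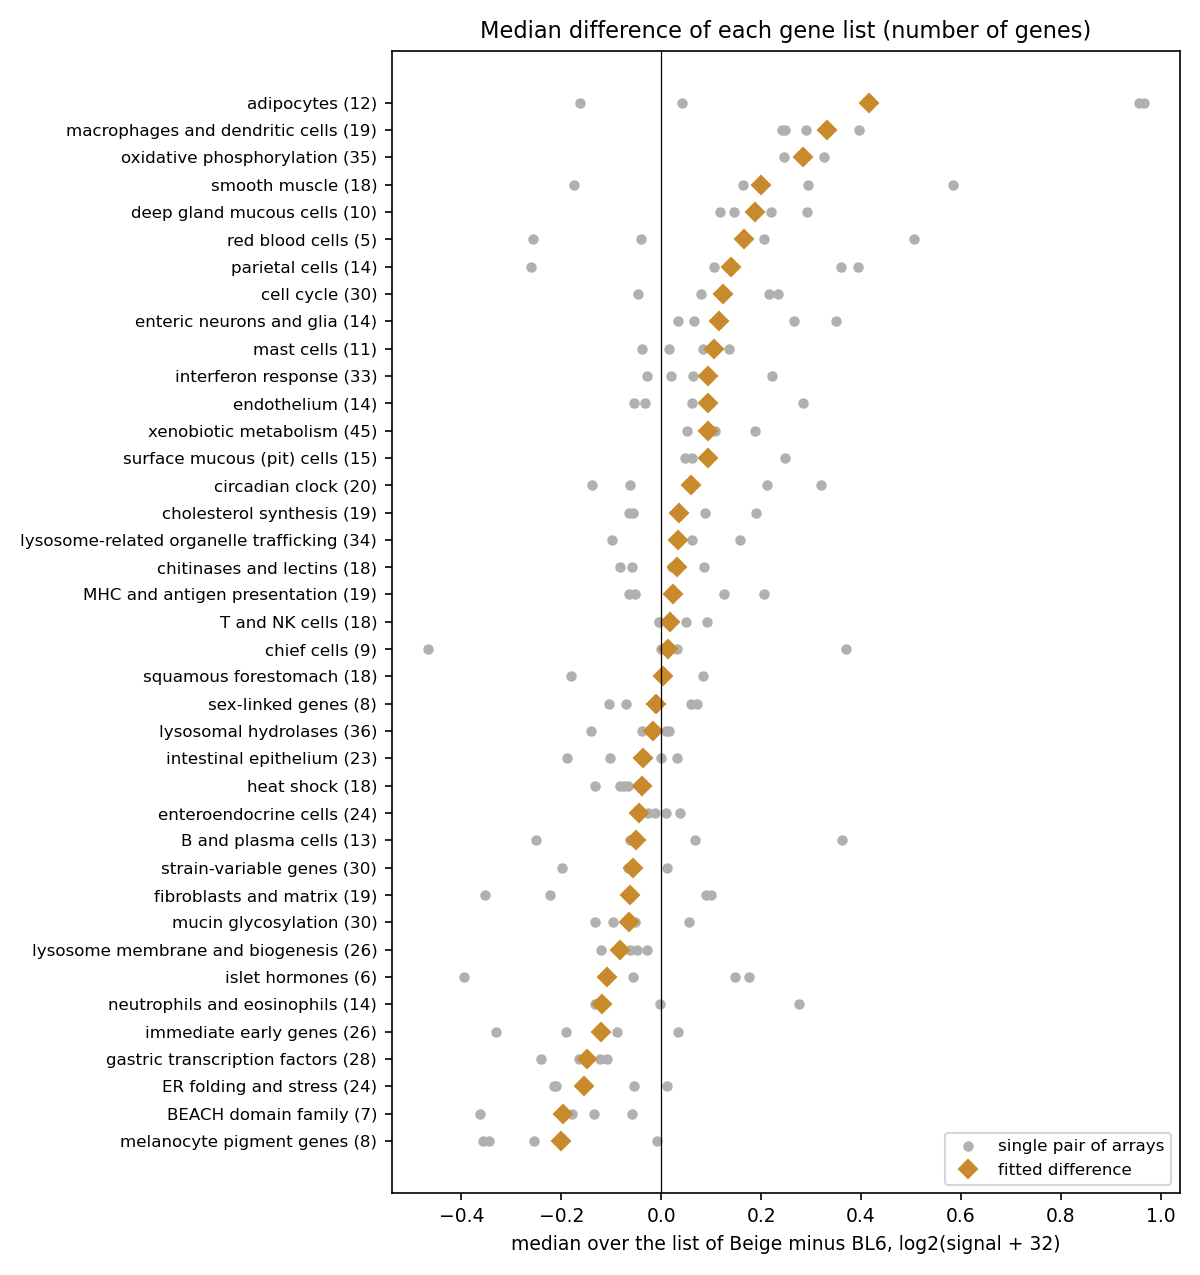
Median difference of Beige minus BL6 over each gene list (rows, with the number of genes) in log2(signal + 32) (horizontal axis), diamonds for the fitted difference and grey points for each single pairing of a Beige with a BL6 array. The exocrine pancreas list is left out because its pairings run from -5.92 to 1.59; oxidative phosphorylation lies at 0.28 and gastric transcription factors at -0.15, while the fat cell list at 0.42 spans -0.16 to 0.97.

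Genes listed as variable between mouse strains served to look for a difference in background. Of 30 on the array, 5 lay lower in both Beige arrays (16.7%, against 15.9% of all genes) and 2 higher (6.67%, against 15.7%). The 3 with an unadjusted p under 0.05 were Wdfy1, Ide and Nnt, all lower in Beige. Of all genes 2.27% were at that p and lower. Ide, insulin-degrading enzyme, read 8.07 and 8.32 in BL6 and 7.47 and 7.82 in Beige, a difference of -0.55 (SE 0.19). Its other probe sets differed by -0.96, -0.62 and 0.34. Nnt, the mitochondrial transhydrogenase that carries a deletion in the C57BL/6J substrain, read 8.13 and 8.35 in BL6 and 7.79 and 7.15 in Beige, a difference of -0.77 (SE 0.30). Which substrain was used is not given in the sources used here. Ifi202b and H2-Ea, which differ between inbred strains through known alleles, were dim on all arrays and differed by -0.01 (SE 0.19) and -0.09 (SE 0.35), with 0.02 on another H2-Ea probe set. Xist, listed among the sex-linked genes, read 6.05 and 6.19 in BL6 and 5.72 and 6.30 in Beige, a difference of -0.11 (SE 0.34). Its dimmer probe sets read between 5.07 and 5.33 on these arrays, near the floor of the scale, with a difference of 0.02 on the dimmest. Whether the sex of the animals differed was not tested.

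The neighbourhood of Lyst on chromosome 13 was examined because a mutation moved onto another background brings its flanks along. Of the 30 nearest genes with a probe set, 15 on each side, 15 had a difference above 0 and 15 below it, with a median of 0.01, and 10 lay lower in both Beige arrays (33.3%, against 15.9% of all genes) and 4 higher (13.3%, against 15.7%). Larp4b, an RNA-binding protein, read 10.22 and 9.88 in BL6 and 9.61 and 9.70 in Beige, a difference of -0.40. Ero1b, an oxidase of protein folding that is abundant in pancreas, read 7.91 and 9.81 in BL6 and 7.78 and 7.18 in Beige, a difference of -1.38 (SE 0.53); its high value came from the array with pancreatic transcripts. These were the 2 with an unadjusted p under 0.05. On chromosome 13 as a whole 4.36% of genes were at that p, within the range of 3.43% to 7.59% over the 20 chromosomes other than Y. Its median difference, -0.048, was the lowest of any chromosome, with chromosome 15 next at -0.037.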

How the data were processed

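Trizol-extracted total RNA of the antrum was turned into biotinylated cRNA for Affymetrix arrays, per the labels. The authors deposited 1 linear intensity per probe set and array. Their summarization and scaling is not given in the sources used here, and 64 control probe sets were left out. Intensities were taken as log2(signal + 32), quantile normalized over 6 arrays, and fitted with limma 3.58.1 under R 4.3.3 (lmFit, then eBayes with intensity trend; strain as factor, two-sided, 3 residual degrees of freedom), with Benjamini-Hochberg adjustment over 22626 probe sets. Of these, 20380 carried a single symbol and 691 several in the platform annotation, and 1555 were not listed there. The fit was checked on simulated data. A gene was given by its brightest single-symbol probe set (12393 genes, symbols from RefSeq GRCm38.p6); other probe sets of a named gene are cited where they disagree in sign. Named are the 10 genes with the smallest p in each direction, a panel of gastric and strain genes, the 2 of each described list with the smallest p, and genes beside Lyst; any other gene was chosen after its values were seen. Members and the 40 lists were chosen with earlier results of these data known. Lists are described by counts and medians, with no set test. With 2 arrays per strain precision is low, and an exact permutation test of 2 against 2 cannot go below p 0.333. The alternatives covered the filter on low values, probe set choice, pseudocount, normalization, arrays fitted, moderation, the Gapdh ratio, the replicate block and each array left out.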

Additional observations from a re-analysis of the deposited data

How the results depend on the processing

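No probe set was called in 19 of 20 alternative settings; leaving out an array gave 0 calls higher in Beige and 0 to 1 lower, the 1 being Igha without BL6 replicate 1, where the lone BL6 array is assumed to vary like the other strains. The smallest adjusted p by limma was 0.0656 with the Gapdh ratio as covariate, 0.197 with scaling to the hybridization controls and 0.862 with the replicate block, in which 0 probe sets were called and 1116 had an unadjusted p under 0.05. Deviations of like-numbered arrays correlated at 0.12 for BL6 and Beige, 0.25 for BL6 and Satin and 0.18 for Beige and Satin; no label ties a number to a shared day or litter. The share at an unadjusted p under 0.05 ran from 2.66% without Beige replicate 1 to 11.95% without BL6 replicate 2. Scaling to the hybridization controls moved the median of all genes by 0.22 and no normalization by 0.14; values under these are given relative to that shift. Of 102 named genes, 82 kept their sign in all settings that gave a value, and 13 of the 40 lists did. Without normalization or with median centring Muc5ac was at -0.10, Gkn1 and Gkn2 at -0.23, Tff2 at -0.026 and Pgc at -0.010; with the hybridization controls Muc5ac was at -0.045 and Gkn1 and Gkn2 at -0.18; with the mean of probe sets Gkn1 was at -0.049. With the Gapdh covariate Cblif was at -0.18, Atp4a at -0.23, Sst at -0.10, Chgb at 0.0087, Ifi202b at 0.048, H2-Ea at 0.27, Nr1d1 at -0.25 and Wee1 at -0.015. Leaving out each array in turn moved Lyst over -0.59 to 0.29, Muc5ac over -0.17 to 0.29, Cblif over -0.30 to 0.39, Atp4a over -0.16 to 0.73, Sst over -0.026 to 1.01, Chga over -0.66 to 0.016, Fabp2 over -0.17 to 0.46, Actg2 over -0.20 to 0.37, Xist over -0.41 to 0.19, Ifi202b over -0.10 to 0.070, H2-Ea over -0.47 to 0.30, Pnliprp2 over -2.75 to 0.20, Wdr81 over -0.79 to 0.085 and Nr1d1 over -0.18 to 2.21. The cause of these changes was not tested.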

Other observations

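Probe sets without a single gene name gave some of the largest differences. One that the platform annotation used here does not list read 10.87 and 11.86 in BL6 and 8.84 and 8.88 in Beige, a difference of -2.51 (SE 0.43, limma adjusted p 0.885), against 6.58 and 5.29 on the Satin arrays. Another read 10.59 and 10.31 in BL6 and 11.77 and 11.86 in Beige, a difference of 1.37 (SE 0.21), against 12.14 and 11.61 on the Satin arrays. Both were chosen after their values were seen.

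Further genes that did not overlap between the strains, also chosen after their values were seen, include secreted factors of immune and fat tissue. Retnla, a product of alternatively activated macrophages and fat, read 7.50 and 8.87 in BL6 and 10.39 and 9.27 in Beige, a difference of 1.65 (SE 0.46). Ccl9, a chemokine, read 6.19 and 6.93 in BL6 and 7.82 and 7.72 in Beige, a difference of 1.21 (SE 0.29). Alox15, a lipoxygenase of eosinophils and macrophages, read 5.08 and 5.31 in BL6 and 6.51 and 6.30 in Beige, a difference of 1.21 (SE 0.32). Apoe, the apolipoprotein, read 6.85 and 7.70 in BL6 and 8.62 and 8.31 in Beige, a difference of 1.19 (SE 0.43). In all 4 the lowest value was on BL6 replicate 1, the array with the low Gapdh ratio.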
